A study of Mus musculus with 16 samples.

Results

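Promoter contacts that reach beyond 1 Mb were a small group in mouse liver: 2505 of the 247177 contacts listed at any of 4 times of day joined a promoter fragment to a non-promoter fragment on the same chromosome more than 1 Mb away. The members were chosen by position alone. A contact is a pair of HindIII restriction fragments. A bait is a fragment that stands as the captured promoter end in any of the 4 lists. The other end had to be a fragment that was never a bait, and distance was measured between the midpoints of the fragments. A promoter fragment that never stood as a bait therefore counts here as a non-promoter fragment. Contacts were measured by Promoter Capture Hi-C, in which nuclei are fixed, DNA is cut with HindIII and ligated to its neighbours in the nucleus, and ligation products that hold a promoter are pulled out with RNA probes and sequenced. Livers came from male wild-type C57BL/6 mice aged 8 weeks, kept under 12 h of light and 12 h of dark and fed ad libitum. They were collected at ZT0 (lights on), ZT6, ZT12 (lights off) and ZT18, with 3 pools (A, B and C) of 2 livers at each timepoint and with pool A on 2 lanes, which gave 16 samples. No group carried a genetic change or a treatment, and time of day was the only difference between the groups.

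Each timepoint had 1 list, made from its merged pools, of the contacts with a CHiCAGO score of at least 5. The score is a transformed and weighted p-value, not a count of contacts. It asks whether a pair of fragments was joined more often than its distance and both fragments' own capture would give. Runs of 4 values are in the order ZT0, ZT6, ZT12, ZT18 throughout. The lists held 146262, 154775, 151529 and 151347 contacts, with no read counts, so the depth behind a single score is unknown. With 1 list per timepoint there was no replicate error and no test between timepoints, and a contact missing from a list is a contact below the score limit, not one that was measured as absent. The 95% Wilson intervals given below cover counting error only and treat contacts as independent, which neighbouring contacts of 1 bait are not. A library summary of the study places the totals of the lists labelled ZT6, ZT12 and ZT18 at ZT18, ZT6 and ZT12. The labels were followed here. The lists hold contacts and no expression, so liver identity could not be checked from marker genes.

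Most promoter contacts lie within a topological domain, a stretch of chromosome whose parts meet each other more often than they meet the rest, and fall off with distance along the DNA. Contacts beyond a domain are known between regions that share a chromatin state, between Polycomb-bound developmental genes, and between gene clusters that gather at a nuclear body, such as the replication-dependent histone genes at the histone locus body. CTCF, a DNA-binding protein that stops loop extrusion by cohesin, marks many loop ends, often with its motifs facing each other.

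Sequences of the leading contacts are printed here from the mm9 genome, the build of the lists, in lower case from 5′ to 3′. The first 3 windows are shown because they hold a match, in capitals, to the core CTCF motif: CCA, any 2 bases, AG, any 2 bases and GGC. The windows come from the Bcl6 and Bhlhe22 contacts, which are among the strongest outside the histone genes. The Bhlhe22 bait was searched too and held no match. The motif was searched on both strands and a match on the minus strand appears as its reverse complement. The Bcl6 bait match lay on the plus strand and its partner's on the minus strand, 1.08 Mb downstream, so that the letters face each other.
Bcl6 bait, chr16:23984395-23984514, plus strand: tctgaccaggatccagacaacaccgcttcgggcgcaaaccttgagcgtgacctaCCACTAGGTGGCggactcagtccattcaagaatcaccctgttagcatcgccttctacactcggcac
Bcl6 other end, chr16:25064782-25064901, plus strand: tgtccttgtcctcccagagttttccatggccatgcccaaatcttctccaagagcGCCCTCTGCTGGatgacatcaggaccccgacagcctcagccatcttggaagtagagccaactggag
Bhlhe22 other end, chr3:18962336-18962455, plus strand: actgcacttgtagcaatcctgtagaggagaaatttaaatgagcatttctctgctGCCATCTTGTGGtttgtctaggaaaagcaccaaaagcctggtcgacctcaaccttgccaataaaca

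The next windows are the starts of fragments at the other end of the contacts described below, chosen for the highest score at their locus or for a very long distance. The capitals mark what HindIII leaves at the start of a fragment (AGCTT).
Hist1h2ae other end, chr13:22128853-22128952, plus strand: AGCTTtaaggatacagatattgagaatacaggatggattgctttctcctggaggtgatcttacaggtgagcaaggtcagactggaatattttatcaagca
Hoxa6 and Hoxa11 other end, chr6:51130766-51130865, plus strand: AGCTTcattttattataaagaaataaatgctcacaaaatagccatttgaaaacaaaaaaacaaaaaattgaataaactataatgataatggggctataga
Igfbp3 other end, chr11:8302978-8303077, plus strand: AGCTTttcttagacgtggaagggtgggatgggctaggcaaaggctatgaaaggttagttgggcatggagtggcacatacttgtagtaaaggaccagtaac
Fgg and Fgb other end, chr3:81787617-81787716, plus strand: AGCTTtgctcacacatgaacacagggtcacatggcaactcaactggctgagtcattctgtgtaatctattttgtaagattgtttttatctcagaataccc
Fragment 1760 bp from the Slc36a3 start, chr11:54966970-54967069, plus strand: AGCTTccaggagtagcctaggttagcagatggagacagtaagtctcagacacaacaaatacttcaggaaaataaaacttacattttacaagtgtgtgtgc
Fragment nearest to Sp110, chr1:87488901-87489000, plus strand: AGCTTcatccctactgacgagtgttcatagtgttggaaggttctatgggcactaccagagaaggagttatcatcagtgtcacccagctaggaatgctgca
Fragment overlapping the pseudogene Gm16026, chr1:85273533-85273632, plus strand: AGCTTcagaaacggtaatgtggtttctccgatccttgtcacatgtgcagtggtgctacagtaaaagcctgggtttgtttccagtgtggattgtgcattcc

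The third set shows the stem-loop that ends replication-dependent histone mRNAs in place of a poly(A) tail. It was searched on both strands as GG, any 2 bases, CTTTT, any base, AG, any 2 bases and CC and is in capitals, read along the strand of the match. Of the 173 other ends in the histone region described below, 23 overlapped a histone gene and 7 (4.05%) held a match. Over all HindIII fragments the share was 0.128%. The region was chosen by its histone genes, so a higher share there was given in advance. Fragments of the region without a contact were not counted apart. The 7 matches had 3 distinct sequences.
Near Hist1h1b, chr13:21871699-21871728, minus strand: ccccaaaGGCTCTTTTCAGAGCCacctaga
Near Hist1h2an and Hist1h2bp, chr13:21879785-21879814, plus strand: acacaaaGGCTCTTTTCAGAGCCacccaca
Near Hist1h2bj, chr13:22135500-22135529, plus strand: atccaaaGGCTCTTTTCAGAGCCacgcaca
Near Hist1h1d, chr13:23647649-23647678, plus strand: ctcaaacGGCTCTTTTCAGAGCCacccaca
Near Hist1h2be, chr13:23677393-23677422, minus strand: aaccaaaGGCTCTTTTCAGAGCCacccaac
Near Hist1h1t, chr13:23788387-23788416, plus strand: acccaaaGGCTCTTTTAAGAGCCacttaca
Near Hist1h4b, chr13:23849228-23849257, plus strand: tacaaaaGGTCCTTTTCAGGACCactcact

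The number of contacts over 1 Mb was 1190, 1415, 1169 and 1130 by timepoint. ZT6 had the most, both in number and as a share of its list: 0.914% (0.868 to 0.963%) at ZT6, 0.814% (0.769 to 0.861%) at ZT0, 0.771% (0.729 to 0.817%) at ZT12 and 0.747% (0.704 to 0.791%) at ZT18. The interval at ZT6 did not overlap the other 3, which overlapped one another, but its lower end of 0.868% lay close to the 0.861% of ZT0. The intervals treat neighbouring contacts as independent, so they cannot decide between timepoints. Promoter to non-promoter contacts of 150 kb to 1 Mb also had their largest share at ZT6, with 40.8%, 41.4%, 38.5% and 38.8% of the lists. At 750 to 1000 kb alone the shares were 0.930%, 0.969%, 0.766% and 0.805%. Contacts over 1 Mb between promoters had their largest share at ZT18, with 0.273%, 0.306%, 0.292% and 0.330%. ZT6 was above ZT0 outside the histone gene region of chromosome 13 and level with it inside. Inside it the lists held 528, 528, 472 and 485 of the contacts and outside it 662, 887, 697 and 645. Contacts over 1 Mb that were listed at ZT6 alone numbered 457, or 32.3% of those in the ZT6 list, where 15.9% of all contacts in that list were at ZT6 alone. The like shares for ZT0, ZT12 and ZT18 were 22.9%, 22.8% and 24.5% of the contacts over 1 Mb, beside 13.8%, 14.0% and 13.9% of all contacts. Over the union, 9.95% of all contacts were at ZT6 alone, 8.20% at ZT0 alone, 8.56% at ZT12 alone and 8.50% at ZT18 alone. Whether the ZT6 count exceeds the spread between pools was not tested. Under the other order of the timepoints the largest count falls at ZT18.

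**Figure D1:**
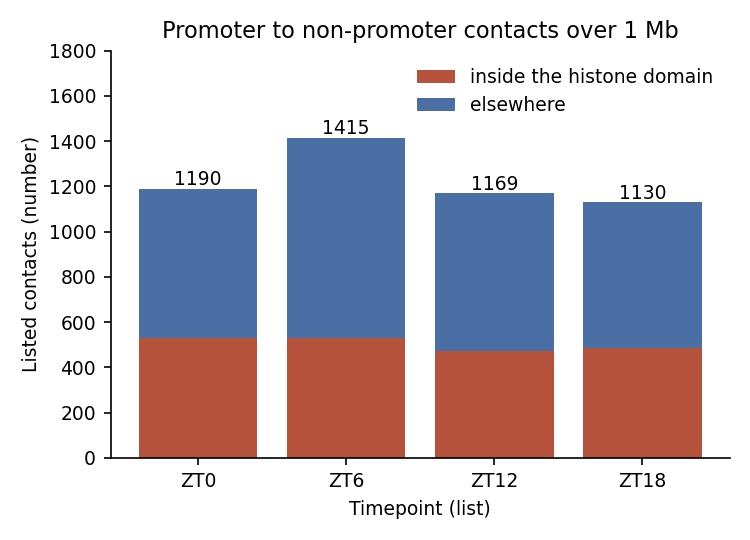
Number of promoter to non-promoter contacts over 1 Mb in the list of each timepoint, split into those within the histone gene region of chromosome 13 and all others. The contacts outside the region rise from 662 at ZT0 to 887 at ZT6 and stand at 645 at ZT18, while those inside it range from 472 to 528.

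The share of contacts listed all day was smaller over 1 Mb than among contacts at large, but close to that at 750 to 1000 kb. Of the 2505, 409 were listed at all 4 timepoints, which is 16.3% (14.9 to 17.8%), where 32.5% of all contacts were. Presence at 3, 2 or 1 timepoints was seen for 350, 472 and 1274 members, and the last are 50.9% of the members beside 35.2% of all contacts. Contacts of the same kind between 150 kb and 1 Mb, of which there were 108317, were listed at all 4 timepoints in 25.1% of cases, and the 1024 promoter-promoter contacts over 1 Mb in 14.2%. The nearer contacts had 22.3% at 250 to 500 kb, 16.7% at 500 to 750 kb and 16.1% at 750 to 1000 kb. In that last class 56.1% were at 1 timepoint. The members as a whole were thus not listed all day less often than contacts of 750 to 1000 kb. The members split by place in this respect. In the histone gene region 29.2% (26.2 to 32.4%) of 816 contacts were listed at every timepoint, and elsewhere 10.1% (8.78 to 11.7%) of 1689. The share elsewhere lay below the 16.1% of contacts of 750 to 1000 kb. The level depended on what counts as the same contact. When another other end of the same bait within 10 kb was accepted, a setting added for the nearer contacts after the values were seen, the share at all 4 timepoints was 47.0% of the members (71.8% in the histone region and 35.0% elsewhere) and 58.3% at 150 kb to 1 Mb. With 1 member for each bundle of neighbouring contacts, as described below, it was 8.95%, and this was not computed for the comparison sets.

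**Figure D2:**
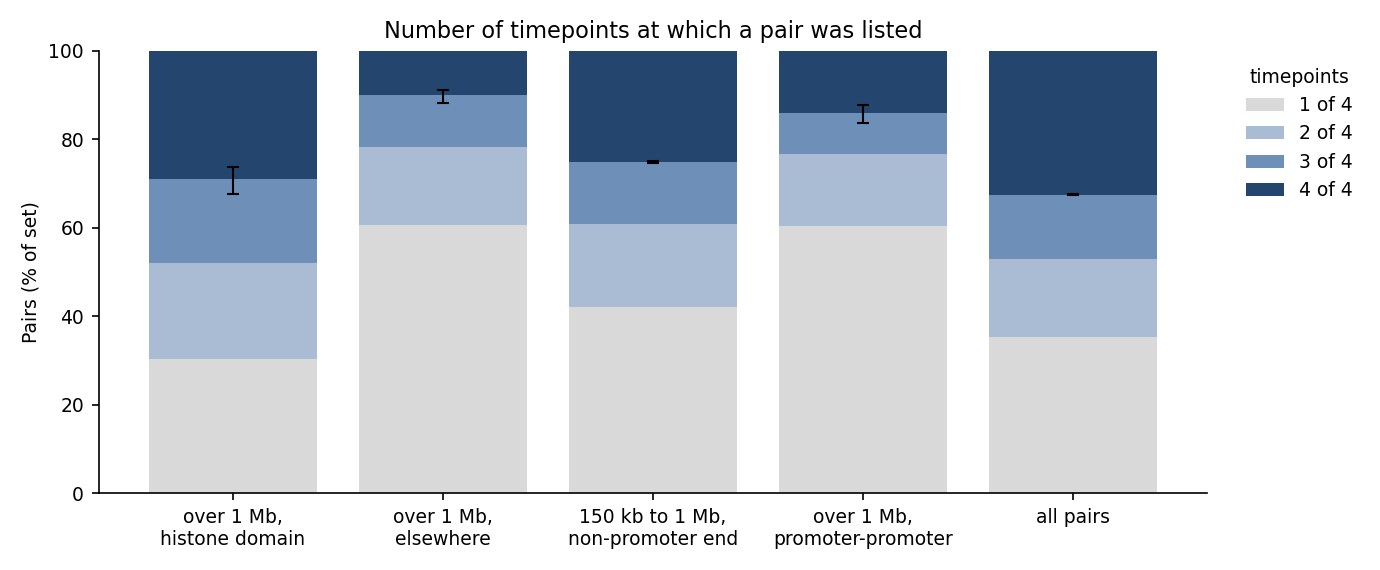
Share of contacts (percent) listed at 1, 2, 3 or 4 timepoints, for the contacts over 1 Mb inside and outside the histone gene region and for the comparison sets. The error bars are 95% Wilson intervals (counting error only) of the share listed at all 4 timepoints, which is 29.2% inside the region and 10.1% outside it.

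The share listed all day rose with the highest score, in the members as in nearer contacts. This rise is in part built in, because a contact is listed where the same scores reach 5. None of the 720 members with a highest score of 5 to 6 was listed at all 4 timepoints, with an interval that reaches 0.531%. The share was 1.24% at 6 to 8, 8.40% at 8 to 10, 37.8% (33.3 to 42.4%) at 10 to 15 and 83.4% (78.3 to 87.5%) at 15 or more. At 150 kb to 1 Mb the like shares were 0.279%, 9.09%, 40.6%, 80.1% and 98.9%, so within each class from 6 upward the share was lower for the longer contacts. The scores of the whole group were not lower, but whether a score means the same at unlike distances was not tested. The median of the highest score over the day was 7.21 for the members and 6.74 for contacts of 150 kb to 1 Mb, and 27.0% of members (676) reached 10 at some timepoint beside 18.8% of the nearer contacts. The region of histone genes again carried the difference, with a median of 9.45 inside it and 6.53 outside. For the 409 members listed at every timepoint the median score was 11.67, 12.04, 10.72 and 11.26. The 27214 nearer contacts listed at every timepoint had lower medians, 9.15, 9.44, 9.06 and 9.07. A contact's range over the day had a median of 6.65 in these members and 3.95 in the nearer contacts. Inside the histone region the range was 7.42. Outside it the range was 5.42, with median scores of 9.24, 10.69, 9.70 and 9.68. Ranges were not compared at equal scores.

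Distances crowded at the lower limit. The median was 1.50 Mb with quartiles of 1.15 and 1.82 Mb, and 2116 of the 2505 contacts spanned 1 to 2 Mb, 315 spanned 2 to 5 Mb, 20 spanned 5 to 10 Mb, 17 spanned 10 to 50 Mb and 37 more than 50 Mb. Contacts listed at all 4 timepoints made up 17.4% of the class of 1 to 2 Mb and 11.4% of the class of 2 to 5 Mb, but outside the histone gene region these were 10.7% and 8.56%. At the limit itself, the shortest members were contacts of the Gm11266 bait at 1000276 bp (scores 14.07, 7.28, 11.47 and 13.21), of the Ckmt2 bait at 1000423 bp (5.48 at ZT0 and 11.54 at ZT6) and of the Bhlhe22 bait at 1000536.5 bp (6.83 at ZT0, 8.39 at ZT12 and 10.46 at ZT18). The contacts just too short were those of the 1190005F20Rik bait at 999835.5 bp (7.04, 13.68, 7.69 and 5.97), the Erbb4 bait at 999152.5 bp (5.57 at ZT6 and 5.09 at ZT18) and the 2700086A05Rik bait at 999014.5 bp (5.14 at ZT12). Scores on either side of the limit overlapped.

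**Figure D3:**
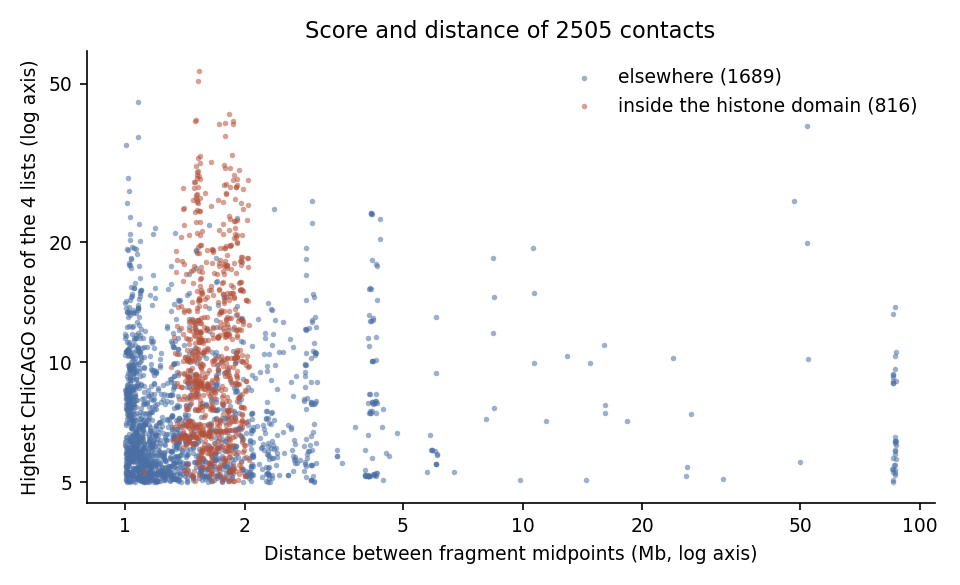
Highest CHiCAGO score over the 4 timepoints against the distance between fragment midpoints (Mb), both on log axes, for each of the 2505 contacts, coloured by place inside or outside the histone gene region. Scores reach 53.78 inside the region and 45.03 outside it, and the contacts over 5 Mb number 74.

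The contacts came from 573 of the 18165 baits (3.15%). Of these, 310 baits had a single contact over 1 Mb, 137 had 2 to 4, 126 had 5 or more and 63 had 10 or more. The 10 leading baits held 543 contacts (21.7%) and all lay in the histone gene region of chromosome 13, a chromosome that carried 999 members (39.9%), ahead of chromosome 3 with 183, chromosome 1 with 172, chromosome 6 with 157 and chromosome 10 with 130. On chromosome 13 the members were 9.70% of all promoter to non-promoter contacts. Baits with a contact over 1 Mb lay in gene-poor surroundings, with a median of 9 protein-coding gene starts within 500 kb on each side, beside 15 for all baits, and the median was 7 around their other ends, beside 10 around the other ends of contacts of 150 kb to 1 Mb. Baits named by a snoRNA gene had such a contact in 36 of 662 cases (5.44%, 3.95 to 7.44%), and those of protein-coding genes in 3.10%.

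The histone contacts joined a pair of clusters of replication-dependent histone genes, which supply the histones of newly made DNA and are transcribed in S phase. The Hist1 genes lay in a cluster at chr13:21808012-22135083, with 24 genes from Hist1h2bl to Hist1h2bj, and a cluster at chr13:23622919-24026331, with 31 genes from Hist1h4h to Hist1h2aa. Between them lay 1488 kb with 95 gene starts, 37 of them vomeronasal receptor genes. The region was taken as both clusters with 200 kb on each side (chr13:21608012-24226331) after the counts had been seen. It held 816 of the 2505 contacts (32.6%), and 815 of these joined the side of 1 cluster to the side of the other: 283 had the bait in the first cluster and 532 in the second. A single contact ended between the margins, and the 4 baits there had none.

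Of 28 baits with a histone gene start in the region, 22 had contacts over 1 Mb, 552 in all, and so did 12 of the other 34 baits. The counts per bait that follow take in all its contacts over 1 Mb, a few of which left the region. The bait of Hist1h2ai and Hist1h2bl, genes for core histones H2A and H2B at the outer edge of the first cluster, led with 90 contacts. They numbered 71, 78, 68 and 73 by timepoint, and 57 of the 90 were present at all 4. The bait of Hist1h2af, Hist1h3g and Hist1h4h in the second cluster had 70 (51, 54, 45 and 44), and that of Hist1h2ag and Hist1h4i 53 (37, 36, 28 and 30). The bait of Hist1h1b, a linker histone gene, had 43 and the widest swing of these (25, 15, 31 and 25). Hist1h2ae had 42 (31, 33, 26 and 32) and the bait of Hist1h2ac and Hist1h2bc 41 (26, 30, 28 and 33). Genes of other kinds at the edge of the second cluster were among the leading baits as well. Abt1, an activator of basal transcription, had 64 contacts, the butyrophilin genes Btn2a2 and Btn1a1 54 and 34, and the zinc finger gene Zfp322a 52. No timepoint was highest for all 10 baits: 4 of them peaked at ZT6, 3 at ZT0, 2 at ZT12 and 1 at ZT18.

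Contacts between promoters were not counted per bait. Not every histone bait had a contact over 1 Mb with a non-promoter fragment. The bait of Hist1h2aj, Hist1h2bm and Hist1h3h adjoins the leading bait and had none at any timepoint. Neither had those of Hist1h4k, of Hist1h2ah and Hist1h2bk, of Hist1h2bh and Hist1h3f, of Hist1h2bb and Hist1h3c, or of Hist1h2aa and Hist1h2ba. Neighbouring olfactory receptor baits of the first cluster's flank were also without one, apart from the Olfr1359 bait with 2. The non-promoter fragments next to these baits were in part the most contacted of all. The fragment chr13:22128853-22129774, which adjoins the Hist1h2bk bait and lies between genes, was contacted by 17 baits, and chr13:22120613-22123378, which adjoins it on the other side and overlaps an exon of Gm11292, by 21. All 21 non-promoter fragments contacted by 10 or more baits lay in this region, while the most contacted fragment elsewhere had 9. Non-promoter here means never a bait, and some of the 21 held a gene start. The fragment chr13:21878616-21881804, contacted by 15 baits, held those of Hist1h2an and Hist1h2bp.

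The highest score of any contact over 1 Mb joined Hist1h2ae to that fragment by Hist1h2bk over 1.53 Mb. It was 49.87, 32.85, 47.11 and 53.78, lowest at ZT6 where the whole group was most numerous. The fragment at chr13:22130074-22132678, 543 bp from the Hist1h4i start, joined the same bait with 32.85, 37.83, 36.81 and 50.82. From the other cluster, Hist1h2ai and Hist1h2bl contacted chr13:23632185-23633039 over 1.82 Mb with 41.96, 28.59, 22.90 and 30.95, which fell through ZT12. The bait of Hist1h4b reached the fragment by Hist1h2bk with 39.74, 22.85, 12.15 and 15.06. That contact had the lowest score, at any timepoint, of the 10 strongest members.

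Replication histone genes are near-identical copies, whose reads are uncertain in place, so shared sequence was looked for between the bait and the other end of each pair. In 8 of the 2505 pairs (0.319%) the bait and the other end shared 200 bp or more at 95% identity or above, and all 8 were histone contacts. For 9 of the 10 strongest members no such stretch was found, while Hist1h2ai and Hist1h2bl with chr13:23676241-23678113, which overlaps Hist1h2be, shared 431 bp. This comparison cannot tell whether reads were misplaced. Matches under 200 bp were not counted, and copies on fragments outside the pair were not searched.

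**Figure D4:**
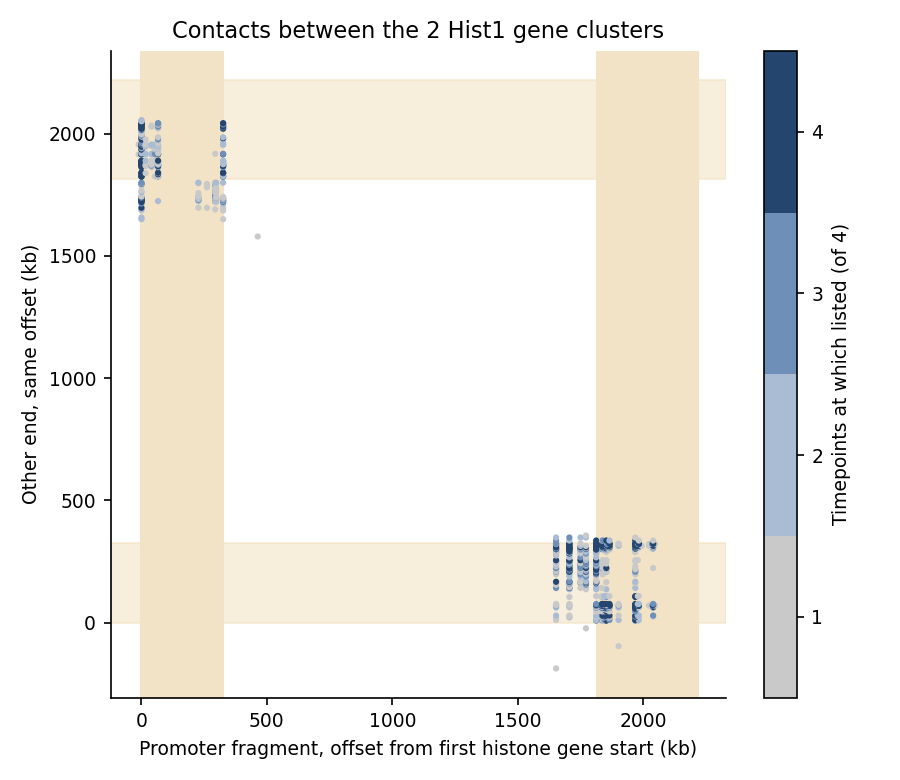
Each of the 816 contacts of the histone gene region as a point, with the promoter fragment on the horizontal axis and the other end on the vertical axis, both in kb from the first histone gene start, coloured by the number of timepoints at which it was listed, and with the extent of each gene cluster shaded. The points fall in the corners where 1 cluster or its flank meets the other, and a single grey point lies apart, from a bait in the flank of the first cluster to a place between the margins.

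Outside the histone genes, the contacts gathered at a limited number of places. When members whose ends both lay within 100 kb of another's were linked, the 2505 contacts fell into 447 bundles, of which the histone region was the largest with 814. Single contacts made up 241 bundles, and 206 of these were listed at 1 timepoint. Another 41 bundles of 10 or more held 828 of the 1691 members outside the largest (49.0%). These 41 and the largest each had a member at every timepoint. Of the 2505 contacts, 71.4% had another contact of the same bait within 10 kb of their other end (90.3% in the histone region and 62.2% elsewhere). A promoter-promoter contact joined the same places, within 50 kb at both ends, for 94.6% of the histone contacts and 39.5% of the rest. The loci that follow were picked for description after their values had been seen.

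Bcl6, a transcriptional repressor known from germinal centre B cells and also present in liver, had the highest score outside the histone genes. Its bait at chr16:23983052-23989601 contacted chr16:25064140-25067256 with 40.65, 39.45, 34.65 and 45.03. That fragment lies 1.08 Mb away and overlaps an exon of the noncoding RNA gene A230028O05Rik. Both fragments hold the CTCF core matches printed above. The contact was far above the score limit at every timepoint. The bait had 14 contacts over 1 Mb, 11, 10, 11 and 11 of them in the order of the timepoints and 7 at all 4.

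Bhlhe22, a transcription factor of neurons, contacted a fragment between genes at chr3:18961207-18964164 with 30.81, 33.31, 32.21 and 35.15. The bait had 15 contacts in the bundle, and the Armc1 bait on the far side had 6 contacts back, the strongest to a fragment 2303 bp from the Bhlhe22 start (8.74, 9.16, 11.49 and 9.54). Baits on both sides thus had contacts in the bundle, but those of Armc1 did not mirror the strongest one. The other end of the strongest Bhlhe22 contact lay 98901 bp from the Armc1 start. The Bhlhe22 contact that ended nearest to that start, at 4404 bp, had 8.73 at ZT18 alone. On chromosome 8 the bait of AC132606.1 contacted an exon of Abce1, a ribosome recycling factor, with 21.24, 29.08, 26.77 and 22.81, among 43 contacts (28, 32, 30 and 28 by timepoint) between the stretch from Otud4 to Abce1 and that of AC132606.1 and Usp38. Adamts1, a secreted metalloprotease that cleaves proteoglycans, had 17 contacts in its bundle (13, 11, 13 and 12) that all ended between genes within 87.6 kb, the strongest with 22.23, 16.16, 21.74 and 18.33. Chordc1, a co-chaperone of Hsp90, reached over 2.98 Mb to an exon of Taf1d, a subunit of the RNA polymerase I factor SL1, with 7.76, 14.62, 10.54 and 5.38.

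The Hoxa genes, developmental transcription factors that are largely silent in adult liver, formed a bundle of 72 contacts. Of the 8 baits, 7 held a Hoxa gene and the other held 2700086A05Rik. All 72 contacts ended on 17 fragments between genes in 57.9 kb at chr6:51104933-51162854, and no promoter-promoter contact joined the same places. Mir148a, a microRNA abundant in liver, was the nearest gene start to the leading fragment, at 86709 bp. Contacts were fewer at ZT6 and ZT18 than at ZT0 and ZT12: 55, 37, 57 and 33, with 16 at all 4. The Hoxa5 bait had 5, 2, 4 and 0, and the Hoxa11 bait 11, 6, 12 and 6. The fragment chr6:51130766-51133200 was contacted by Hoxa6 with 21.03, 13.79, 13.54 and 17.20 and by Hoxa11 with 16.57, 17.43, 19.22 and 16.27. The score was highest at ZT0 for Hoxa6 and at ZT12 for Hoxa11. The 8 baits share their other ends, so they are not 8 observations of the day.

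Igfbp3 and Igfbp1, binding proteins of insulin-like growth factors of which Igfbp1 is secreted by hepatocytes, lay side by side on chromosome 11 and contacted a stretch of 292 kb, in which 26 of the 29 contacted fragments were between genes. Igfbp3 had 26 contacts there, and these were all the contacts that its bait had at any distance. They numbered 19, 21, 15 and 21, and 13 were present at all 4. Igfbp1 had 10 (3, 4, 6 and 3) and none at all 4. The strongest, between Igfbp3 and chr11:8302978-8304986, had scores of 9.90, 17.26, 18.79 and 21.76, and the next, to chr11:8150733-8153700, had 19.50, 9.57, 10.81 and 9.11. The first was lowest and the second highest at ZT0, from the same bait.

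The fibrinogen genes Fga, Fgb and Fgg, which encode the liver's clotting protein, were joined over 1.01 to 1.09 Mb to Tdo2, the hepatic enzyme that opens tryptophan breakdown, and its neighbour Accn5. The 29 contacts numbered 11, 21, 19 and 6. Most of that swing came from the bait shared by Tdo2 and Accn5, which had 1, 10, 8 and 1, and 3 of the 29 were present at all 4. Fgg contacted an intron of Accn5 at chr3:81787617-81793767 with 9.09, 15.31, 17.75 and 17.76, and Fgb contacted the same fragment with 7.94, 13.30, 9.66 and 6.25. The count fell at ZT18 while the Fgg score did not.

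**Figure D5:**
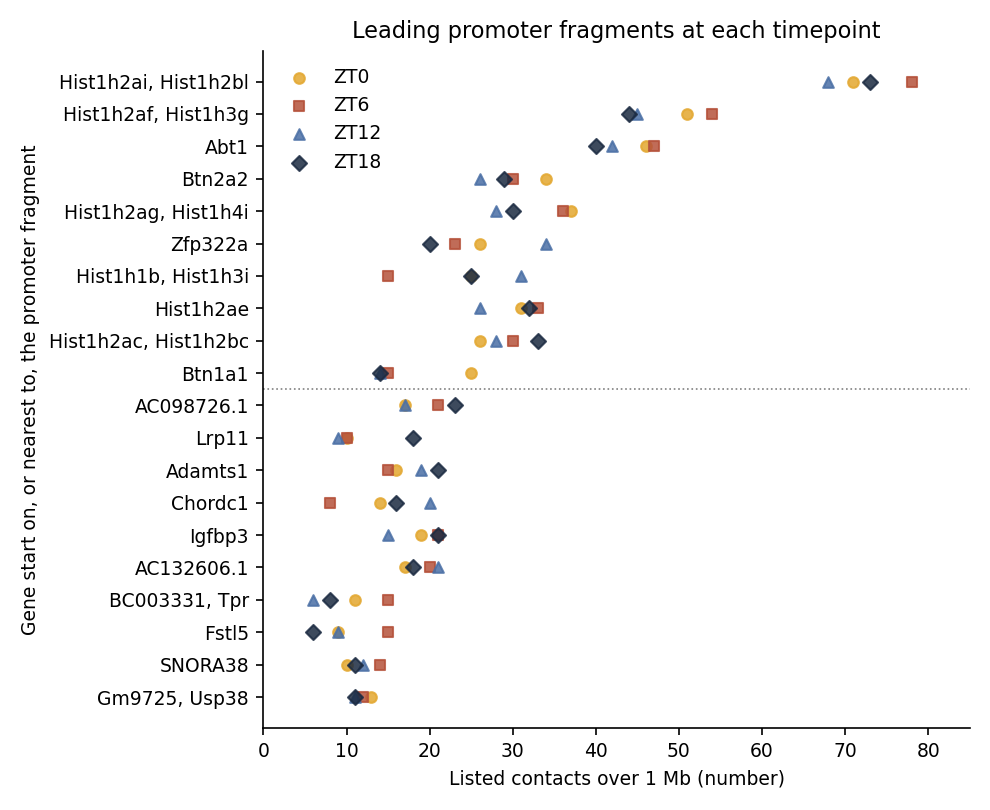
Number of contacts over 1 Mb in the list of each timepoint (1 marker per timepoint) for the 10 leading baits of the histone gene region, above the dotted line, and the 10 leading baits elsewhere, each named by the gene start on it or nearest to it. Counts of the Hist1h2ai and Hist1h2bl bait lie between 68 and 78, and those of Chordc1 run from 8 at ZT6 to 20 at ZT12.

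Most baits with many contacts over 1 Mb kept some at every timepoint. Among the 63 baits with 10 or more, 61 were listed at each timepoint, and for these 61 the highest count was a median of 1.71 times the lowest. The highest count fell at ZT6 alone for 29 of the 63, at ZT12 for 13, at ZT0 for 8 and at ZT18 for 7, with 6 ties. Many of these baits share their other ends, as in the histone region and at Hoxa, so they are not 63 observations of the day. Chordc1 had 14, 8, 20 and 16, and Tpr, a protein of the nuclear pore basket, 11, 15, 6 and 8. The bait of Lrp11 had 10, 10, 9 and 18 and none of its 30 contacts at all 4. The ZT6 list was also the longest of the 4.

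For gene groups, the share of baits with a contact over 1 Mb is set beside the 3.15% of all baits. Of the core clock genes, which drive the daily rhythm of transcription, 0 of 17 baits did, an interval that reaches 18.4%. Among transcription factors of hepatocytes it was 1 of 26: Nr2f2, an orphan nuclear receptor, with 1 contact of 1.05 Mb at ZT18 and a score of 6.09. Plasma protein genes had 6 of 53 (11.3%, 5.29 to 22.6%), which were A1bg, C3, C8g and the 3 fibrinogen genes, and the last 3 adjoin each other. Of 185 developmental transcription factor baits 15 did (8.11%, 4.97 to 12.9%), 7 of them at Hoxa. Elsewhere in that group Dlx5, a factor of limb and forebrain development, had 6 contacts with a highest score of 10.83, and Sox6 had 7 with 9.92. Ribosomal protein genes had 5 of 72 (6.94%, 3.00 to 15.2%), respiratory chain genes 4 of 85 (4.71%, 1.85 to 11.5%) and zinc finger genes 12 of 292 (4.11%, 2.37 to 7.04%). Olfactory receptor genes had 20 of 598 (3.34%, 2.18 to 5.11%) and vomeronasal receptor genes 1 of 36 (2.78%, 0.492 to 14.2%). Genes of cytochrome P450 and conjugating enzymes had 2 of 70 (2.86%, 0.787 to 9.83%). Adhesion and synapse genes had 5 of 206 (2.43%, 1.04 to 5.56%) and solute carriers 5 of 301 (1.66%, 0.712 to 3.83%). Each interval from ribosomal protein genes to solute carriers took in 3.15%. Replication histone genes, a list added after the counts were seen, had 22 of 35. Of the study's own list of oscillating genes 45 of 1118 baits did (4.03%, 3.02 to 5.34%).

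The fragments at the other ends numbered 1601, of which 1304 were contacted by 1 bait and 84 by 5 or more. Between genes lay 49.5% (47.0 to 51.9%) of them beside 40.5% at 150 kb to 1 Mb. With 1 member per bundle the share of the members was 39.5% (35.0 to 44.3%). This was not computed for the nearer contacts, so whether the difference holds when neighbouring contacts are counted once is not known. In introns lay 21.2% beside 30.4%, on exons 20.8% beside 23.1%, and at a gene start that was not a bait 4.06% beside 1.69%. The median distance to the nearest bait was 18.0 kb, and 41.8% lay within 10 kb of one beside 34.0%. In base composition they were close to the genome, with 42.3% G and C beside 41.8% over all HindIII fragments and 44.3% at other ends of 150 kb to 1 Mb. The CTCF core was found 6.98 times per 100 kb, beside 5.50 over all fragments and 8.90 at the nearer other ends, and 4.43% of members held it on both fragments beside 9.41% of the nearer contacts. Of the 87 members whose matches lay on 1 strand at each end, 27 faced each other (31.0%, 22.3 to 41.4%), beside 32.4% at 150 kb to 1 Mb. A match is a run of letters and not a bound site.

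The longest contacts were few, and most were seen once. The 74 members over 5 Mb (2.95%) came from 28 baits and 56 of them were listed at 1 timepoint. Above 80 Mb there were 33, of which 30 ran from the baits of Ugt1a1, the enzyme that conjugates bilirubin, or of Hjurp and Trpm8, the chaperone of the centromeric histone CENP-A and a cold-sensing channel. Their other ends were spread over chr1:3090913-4864261, the start of the assembled chromosome. Of the 33, 30 were at 1 timepoint, and the longest, from the Heatr7b1 bait, spanned 87.0 Mb with 5.71 at ZT0. Another contact of this group, listed at all 4 timepoints, joined Hjurp and Trpm8 to chr1:3504734-3508599 over 86.7 Mb with 9.04, 13.79, 9.19 and 9.42.

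Only 4 contacts over 10 Mb were present at all 4 timepoints, the Hjurp contact among them. The bait of Gm11399 contacted the fragment near Slc36a3, a gene of the proton-coupled amino acid transporter family, over 51.9 Mb of chromosome 11 with 35.71, 34.08, 34.28 and 39.31, the second highest contact outside the histone genes. The bait of Sfi1, a centrosome protein, contacted the same fragment with 19.88, 9.72, 9.88 and 5.38. A U6 snRNA bait contacted chr11:102602263-102603055 over 48.3 Mb with 11.44, 11.58, 25.25 and 25.48, low at ZT0 and ZT6 and high at ZT12 and ZT18. Baits of these contacts also took most of the contacts between chromosomes: the union held 198, and 137 (69.2%) came from a bait with a member over 5 Mb. The Sfi1 bait had 63 of them among its 64 listed contacts, the Gm11399 bait 41 among 43 and the Ugt1a1 bait 21 among 59. The Gm11399 and Sfi1 baits lay at chr11:3039562-3056799 and chr11:3091411-3099770, near the start of the assembled chromosome. Of the 74 members over 5 Mb, 35 had an end in the first 5 Mb of a chromosome. Contacts between chromosomes were listed for 6 of the 28 baits (21.4%), beside 0.468% of all baits.

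A smaller group on chromosome 1 shared other ends rather than baits. The adjoining fragments by Sp110, a nuclear body protein gene, at chr1:87485343-87488900 and chr1:87488901-87489993, and the fragment of Gm16026 at chr1:85273533-85274518 held 21 members from 11 baits, 12 of them over 5 Mb. Those baits included Ccl20, a chemokine, Slc19a3, a thiamine transporter, Neu4, a sialidase, and Pdcd1, an inhibitory receptor of T cells. Distances ran from 2.16 to 52.3 Mb and the highest score was 22.89. No stretch of 100 bp or more aligned between the 3 fragments.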

How the data were processed

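Promoter Capture Hi-C of 16 liver samples was read from 4 deposited lists, 1 per timepoint, of fragment pairs with their CHiCAGO scores. The authors mapped reads to mm9 with HiCUP, merged the pools and lanes of a timepoint and deposited pairs with a score of at least 5, and no version was given in the sources used here. The score is a transformed and weighted p-value and has no replicate, so no test was run. Intervals are 95% Wilson intervals of shares. Of the 129887 listed fragments, 129886 were HindIII fragments of the NCBIM37 genome, and genes were taken from GENCODE vM1. Fragments were named by a gene start on them, or else by a transcript start or the nearest gene start. Python 3.11.15, pandas 2.3.3, pysam 0.24.0 and blastn 2.17.0 were used, and matplotlib 3.10.9 for figures. Bundles are single-linkage groups with 100 kb at both ends. The steps were tested on 20 simulated data sets, in which all planted members were found (100%). Named genes are those of the 10 strongest and 10 longest members, of the 10 baits with most members and the 5 most contacted other ends, and clock or hepatocyte factor baits with a member. Others were named after their values were seen. The members and gene lists were chosen with earlier results of these data known. The share of repeats is not given, because the genome used carries no repeat marks.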

Additional observations from a re-analysis of the deposited data

How the results depend on the processing

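Of 59 values computed under other settings, 32 stayed within their counting interval or, for counts, within 1.5 times the value given above, 26 moved further and 1 changed direction. That 1 was the share of all listings that fell at ZT6, 28.9% and the highest of the timepoints, which became 23.8% when the timepoints were ordered as the study's library summary has them. It was 30.4% without chromosome 13 and 30.7% without the histone region. The 2505 contacts became 1328 at a score of 7 or more, 676 at 10 or more, 389 above 2 Mb, 1506 without chromosome 13 and 1689 without the histone region, the last just within 1.5 times. The share listed at all 4 timepoints and at 1 was 47.0% and 26.2% when an other end within 10 kb counted as the same contact, 20% and 47.3% when a score of 10 was required at each timepoint, 54.4% and 6.95% among contacts that reached 10 at any, 8.95% and 67.8% with 1 contact per bundle, and 10.1% and 60.7% without the histone region. The median highest score was 6.88 above 2 Mb and 6.53 without the region. The median distance was 1.57 Mb at a score of 10 or more, 1.28 Mb without chromosome 13 and 1.28 Mb without the region. At a score of 10 or more, 0.716% of baits had a member and 58.1% of other ends lay between genes. The latter was 39.5% with 1 contact per bundle, a setting not computed for contacts of 150 kb to 1 Mb. The largest bundle held 4.26% of members without the region, and the CTCF core was found 8.19 times per 100 kb with 1 contact per bundle. The cause of these shifts was not tested, beyond the smaller sets that the settings leave. The setting without the histone region was chosen after seeing the data. No paired analysis was possible because contacts were called on merged pools, and leaving out a pool was not possible for the same reason.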
